A study of Mus musculus with 4 samples.

Results

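MHC class II presentation was followed through 9 genes in the lumbar spinal cord of WT mice and G93A mice, with and without spermidine (SD). The genes were listed by name for their place in the pathway, with no threshold on their values, and all 9 were found among the 18674 gene names of the table. They are H2-Aa, H2-Ab1 and H2-Eb1, which encode chains of the surface molecules, Cd74, which encodes the invariant chain, H2-DMa and H2-DMb1, which encode the peptide exchange factor H2-DM, H2-Oa and H2-Ob, which encode its inhibitor H2-DO, and Ciita, which encodes the class II transactivator. G93A mice carry a mutant human SOD1 transgene and are a model of amyotrophic lateral sclerosis, while WT mice do not carry it. Each genotype was given vehicle (PBS in the labels) or SD, which makes 4 groups with 1 library each, WT vehicle and WT + SD on one side and G93A vehicle and G93A + SD on the other. SD, a polyamine, or vehicle was injected 4 times per week for 30 days, and the mice were 100 days old at sampling. According to the methods the mice were male and the transgenic line was kept on a mixed B6 and SJL background, and the number of animals behind a library is not named. The alleles of the H2 region that each animal carried were not analysed here.

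Class II molecules carry peptides from endosomes to the surface of antigen presenting cells, where CD4+ T cells read them. The alpha and beta chains assemble with the invariant chain in the endoplasmic reticulum, and endosomal proteases trim the invariant chain down to a fragment that fills the groove. H2-DM removes that fragment and helps peptides to exchange, and H2-DO holds H2-DM back, mainly in B cells and some dendritic cells. Ciita switches the set on without binding DNA itself, by docking on factors bound to the X and Y boxes of the promoters. In the central nervous system microglia hold little class II at rest and can gain it in disease.

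The promoters of 5 of the 9 genes were found to hold letters that these factors read. RefSeq promoter windows of 300 bases (250 before and 50 after a start, build GRCm38.p6) were at hand for 6 of the 9 genes, H2-Aa, H2-Eb1, H2-DMa, H2-DMb1, H2-Oa and H2-Ob. Windows were searched on both strands for GNAAC, the core of the X box where RFX binds, followed 25 to 45 bases later by GATTGG, the Y box letters that NF-Y binds. These letters and the spacing were chosen after the windows of these genes had been read. The pair was found in 5 of the 7 windows, those of 5 genes, and neither of the 2 windows of H2-DMa held it. The stretch from the X box to the Y box is shown for each of the 5, 5′ to 3′ in the direction of the gene, because it is the sequence that these genes share. Capitals mark the GNAAC and GATTGG letters.
H2-Oa (chr17:34092293-34092350, plus strand): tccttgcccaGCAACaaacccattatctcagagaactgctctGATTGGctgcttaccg
H2-DMb1 (chr17:34153087-34153144, plus strand): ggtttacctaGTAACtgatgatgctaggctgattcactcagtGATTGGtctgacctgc
H2-Ob (chr17:34238808-34238862, plus strand): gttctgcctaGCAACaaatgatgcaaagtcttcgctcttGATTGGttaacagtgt
H2-Aa (chr17:34287857-34287914, minus strand): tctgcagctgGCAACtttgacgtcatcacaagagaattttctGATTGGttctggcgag
H2-Eb1 (chr17:34305766-34305822, plus strand): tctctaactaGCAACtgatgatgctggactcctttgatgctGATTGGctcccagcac

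From the first letter of GNAAC to the first of GATTGG the distance was 32 bases in H2-Oa, H2-DMb1 and H2-Aa, 31 in H2-Eb1 and 29 in H2-Ob. The GNAAC letters began between 76 and 94 bases before the annotated start, and the GATTGG letters between 44 and 62 bases before it. Between them, H2-Aa also holds TGACGTCA, the letters that CREB proteins bind at X2 boxes. Over all 32841 promoter windows of the same length, GATTGG was present in 16.1%, GNAAC in 84.9%, TGACGTCA in 1.79% and the pair at this spacing in 1.17%. A match describes these letters and does not show that a factor was bound, and a window without them says nothing of the factor.

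The values are RPKM, which divide the reads of a gene by the length of its transcript and by the size of its library, so that genes can be compared per length. The estimated depth was between 36800000 and 38600000 read pairs per library, and the sum of RPKM lay between 376852 and 393328. Pairs are an assumption here, since the methods name paired-end adaptors but not whether both ends were read. Each difference between conditions rests on 1 library a side and has no replicate check, and no standard deviation or test is given. A gene was called higher or lower where log2(RPKM + 0.1) differed at least 1.5-fold, and the share of all 18674 names that pass is given with the first count of each comparison and serves as the background of the later lists too. The 5 Hox genes listed for lumbar cord were present in every library, though presence alone does not separate lumbar cord from other levels. They stood apart by genotype in part, since Hoxc10 was 19.8 RPKM in WT vehicle and 20.2 in WT + SD, against 12.7 in G93A vehicle and 12.5 in G93A + SD, and 1 of the 5 was called lower in G93A between the vehicle libraries and 2 between the SD libraries. The part of this in the class II values was not tested. The sum of 14 microglial markers was 226 RPKM in WT vehicle and 204 in WT + SD, against 1287 in G93A vehicle and 1368 in G93A + SD.

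Across the 4 libraries H2-DMa had the highest mean of the 9 genes, at 8.47 RPKM, followed by Cd74 at 6.27, H2-DMb1 at 2.44, H2-Ob at 2.33, H2-Aa at 1.55, H2-Ab1 at 1.15, H2-Eb1 at 1.07, H2-Oa at 0.598 and Ciita at 0.138 RPKM. The median over all names was 4.43 RPKM, so that 7 of the 9 genes lay below the middle of the table. Whether neighbours in this order differ beyond their spread cannot be judged without replicates. The order was not the same in every library, since H2-Ob was below H2-Aa in WT vehicle and G93A vehicle and above it in WT + SD and G93A + SD.

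**Figure D1:**
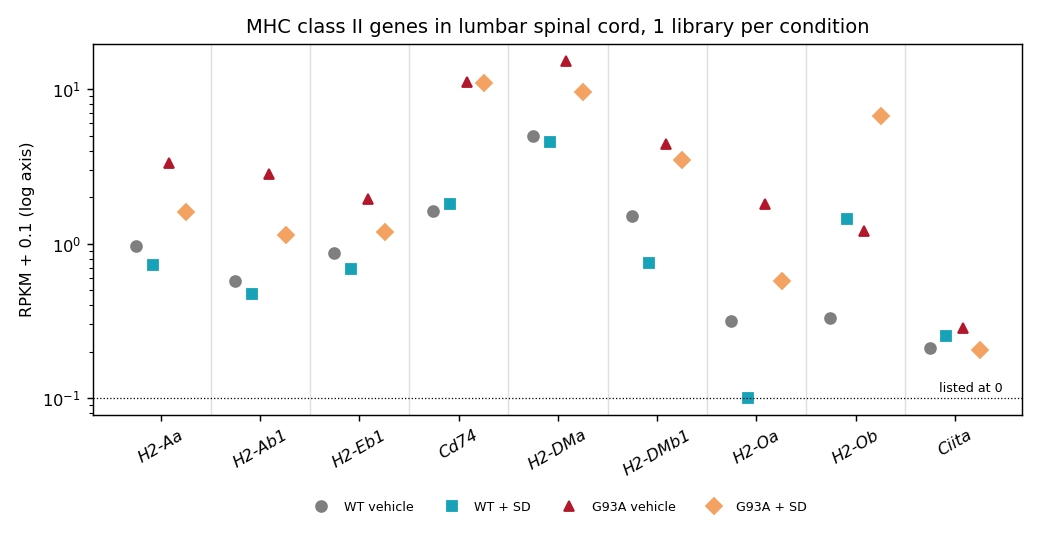
RPKM + 0.1 on a log axis for the 9 genes, 1 point per library, with the dotted line at a listed value of 0. Points of G93A libraries lie above both WT points for H2-Aa, H2-Ab1, H2-Eb1, Cd74, H2-DMa, H2-DMb1 and H2-Oa, while H2-Ob is ordered by SD within each genotype and Ciita stays between 0.104 and 0.185 RPKM.

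In G93A vehicle against WT vehicle, which shows the genotype without SD, 8 of the 9 genes were called higher, none lower, and Ciita neither way. Of all names, 14.4% were called higher and 5.31% lower, and among the 8933 names whose mean lay between those of Ciita and H2-DMa these shares were 19.8% and 6.55%. The median log2 fold change of the 9 genes was 1.77, against 0.046 over all names. Between the SD libraries, G93A against WT, again 8 were called higher and none lower, with 17.1% of all names called higher and 7.82% lower, and the median was 1.26 against 0.050. In these bulk samples more cells of a type and more RNA per cell cannot be told apart.

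In WT + SD against WT vehicle, H2-Ob was called higher, H2-DMb1 and H2-Oa were called lower, and 6 genes passed in neither direction. Of all names, 2.25% were called higher and 2.8% lower. In G93A + SD against G93A vehicle, 5 of the 9 genes were called lower (H2-Aa, H2-Ab1, H2-Eb1, H2-DMa and H2-Oa), H2-Ob was called higher, and Cd74, H2-DMb1 and Ciita passed in neither direction. With a pseudocount of 1 RPKM, H2-Eb1 lost its call, at -0.44. Of all names, 2.97% were called higher and 2.55% lower, and among names in the same range of levels 3.78% and 3.01%. The median log2 fold change of the 9 genes with SD was -0.27 in WT and -0.67 in G93A, against 0.0044 and 0.0068 over all names. The G93A vehicle library enters both the genotype comparison without SD and the SD comparison in G93A, so a high value in that library alone would move both.

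**Figure D2:**
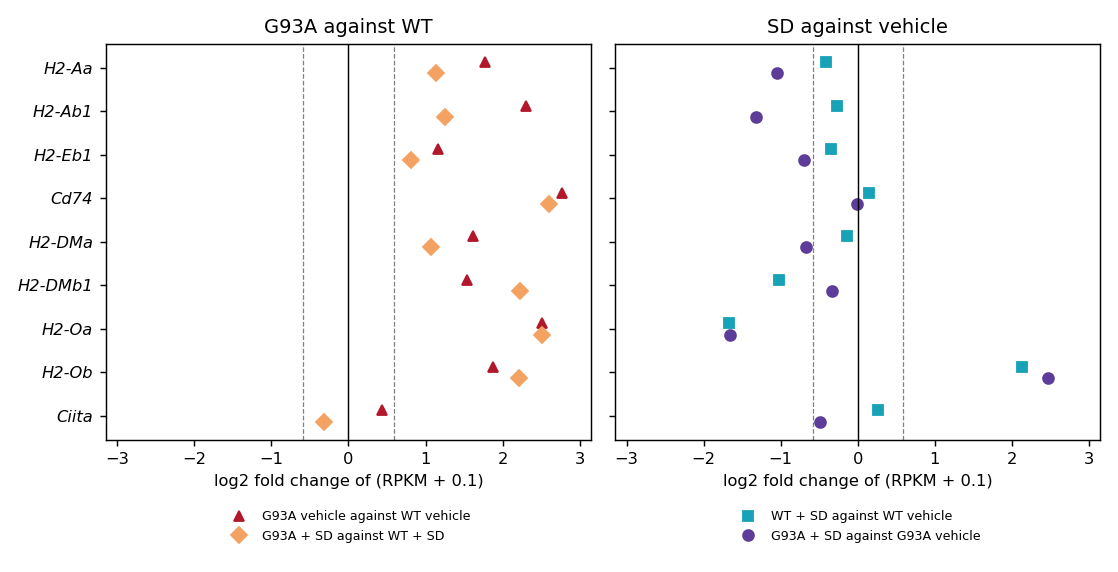
Log2 fold change of RPKM + 0.1 for the 9 genes, with G93A against WT on the left and SD against vehicle on the right. Dashed lines mark 1.5-fold and each point compares 1 library with 1 other. The points of H2-Oa for WT + SD rest on a listed value of 0. All genes but Ciita lie right of the upper line on the left, while on the right H2-Ob is far right in both genotypes and H2-Oa far left.

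H2-Aa encodes the alpha chain of H2-A, the class II molecule of the mouse that pairs with the H2-Ab1 beta chain. H2-Aa was 0.865 RPKM in WT vehicle and 0.629 in WT + SD, against 3.2 in G93A vehicle and 1.5 in G93A + SD. Both G93A libraries lay above both WT libraries, and the SD library was the lower of the pair in each genotype. H2-Aa was 3.70 times as high in G93A vehicle as in WT vehicle, and 2.14 times as high in G93A vehicle as in G93A + SD. The read pairs behind it were estimated at 35.9, 27.1, 137 and 65.1 in that order.

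H2-Ab1, the beta chain of the same molecule, was 0.471 RPKM in WT vehicle and 0.372 in WT + SD, against 2.72 in G93A vehicle and 1.03 in G93A + SD. The order of the libraries was that of H2-Aa. The estimated read pairs were 21.0, 17.3, 125 and 48.1 in the same order, so that its WT values rest on few reads. Its ratio of G93A vehicle to WT vehicle was 5.79, and its log2 fold change with SD was -0.27 in WT and -1.32 in G93A. The level of H2-Aa was 1.84, 1.69, 1.17 and 1.45 times that of H2-Ab1 in WT (vehicle, then SD) and G93A (vehicle, then SD). Per length the ratio was widest in WT vehicle and narrowest in G93A vehicle.

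H2-Eb1, the beta chain of H2-E, was 0.769 RPKM in WT vehicle and 0.581 in WT + SD, against 1.84 in G93A vehicle and 1.09 in G93A + SD. It followed the same order of libraries, with 47.2, 37.1, 117 and 70.3 estimated read pairs. The ratio of G93A vehicle to WT vehicle was 2.39, and the log2 fold change with SD was -0.35 in WT and -0.70 in G93A. H2-Eb2, a second beta chain gene beside it, was listed between 0.0339 and 0.116 RPKM and was called in none of the 4 comparisons. The H2-E alpha chain genes on the list were not analysed here, and whether these mice make an H2-E molecule was not tested.

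Cd74 encodes the invariant chain, which guides new class II molecules to endosomes and blocks their groove on the way. The mean of its 2 rows was 1.53 RPKM in WT vehicle and 1.70 in WT + SD, against 11.0 in G93A vehicle and 10.9 in G93A + SD. The G93A libraries lay far above the WT libraries, and within each genotype the SD and vehicle libraries were close to each other. Cd74 was 7.18 times as high in G93A vehicle as in WT vehicle, and its log2 fold change with SD was 0.15 in WT and -0.010 in G93A. Each of its rows had between 72.7 and 564 estimated read pairs.

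The level of Cd74 did not follow that of the chain genes H2-Aa, H2-Ab1 and H2-Eb1 with SD in G93A. The sum of H2-Aa, H2-Ab1 and H2-Eb1 was 2.10 RPKM in WT vehicle and 1.58 in WT + SD, against 7.76 in G93A vehicle and 3.61 in G93A + SD. Cd74 divided by that sum was 0.726, 1.08, 1.41 and 3.01 in the same order. The ratio was higher in G93A than in WT at the same treatment and higher with SD than with vehicle in the same genotype. In G93A the sum was lower with SD while Cd74 was nearly the same.

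**Figure D3:**
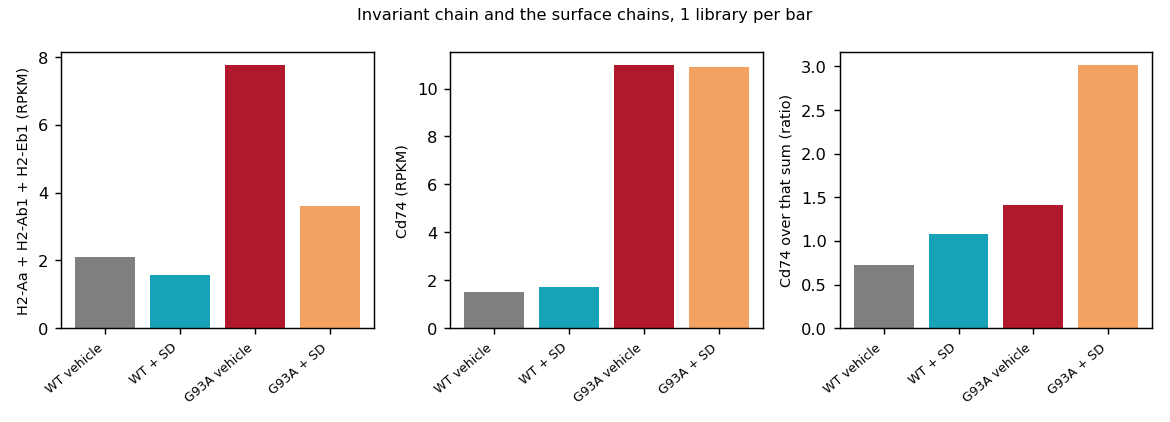
Summed RPKM of H2-Aa, H2-Ab1 and H2-Eb1 (left), RPKM of Cd74 (middle) and Cd74 divided by the sum (right), with 1 bar per library and no replicates. The sum is 7.76 in G93A vehicle and 3.61 in G93A + SD, Cd74 is 11.0 and 10.9 there, and the ratio is 1.41 and 3.01.

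H2-DMa, the alpha chain of the exchange factor H2-DM, was 4.88 RPKM in WT vehicle and 4.43 in WT + SD, against 15.1 in G93A vehicle and 9.44 in G93A + SD. It had the same order of libraries as the surface chains. The ratio of G93A vehicle to WT vehicle was 3.1, and the log2 fold change with SD was -0.13 in WT and -0.67 in G93A. With between 281 and 953 estimated read pairs it rests on more reads than the surface chain genes. Its annotated exons overlap those of Brd2 on the opposite strand, and whether counting used strand is not stated. Brd2, which encodes a chromatin reader that many cells use, lay between 32.4 and 38.7 RPKM in all 4 libraries and was called in no comparison.

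H2-DMb1, the beta chain of H2-DM, was 1.41 RPKM in WT vehicle and 0.645 in WT + SD, against 4.30 in G93A vehicle and 3.4 in G93A + SD. The G93A libraries lay above the WT libraries, and the WT + SD library was lowest. The log2 fold change with SD was -1.02 in WT and -0.33 in G93A, so that it was the WT comparison that passed 1.5-fold. That comparison rests on 73.0 estimated read pairs in WT vehicle and 34.7 in WT + SD.

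H2-DMb2, a neighbouring second gene for this chain, moved the other way with SD. It was 0.128 RPKM in WT vehicle and 0.480 in WT + SD, against 0.498 in G93A vehicle and 2.88 in G93A + SD, and was called higher with SD in both genotypes, with 6.74 estimated read pairs in WT vehicle and 158 in G93A + SD. H2-DMb2 divided by H2-DMb1 was 0.0909 and 0.116 in the vehicle libraries and 0.743 and 0.846 in the SD libraries, for WT and G93A in that order. The sum of both beta chain genes was 1.54, 1.13, 4.80 and 6.27 RPKM in WT (vehicle, then SD) and G93A (vehicle, then SD). H2-DMb1 shares 351 of its 1352 windows of 53 bases (26.0%) with H2-DMb2, and 155 of 1297 longer windows that span about both reads of a pair (11.95%), so how reads were split between them is uncertain. The other 8 genes of the set shared none of their windows of these lengths with a transcript of another gene.

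H2-Oa, the alpha chain of H2-DO, was 0.217 RPKM in WT vehicle and was listed at 0 in WT + SD, with 1.70 in G93A vehicle and 0.471 in G93A + SD. The G93A vehicle library stood above the other 3, and the SD library was the lower one in each genotype. The ratio of G93A vehicle to WT vehicle was 7.83 and that of G93A vehicle to G93A + SD was 3.61, and no fold is given against the library listed at 0. The estimated read pairs were 8.71, 0, 70.4 and 19.8. Its exons overlap the antisense gene BC051537, and without strand their reads cannot be told apart.

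H2-Ob, the beta chain of H2-DO, had another pattern. It was 0.231 RPKM in WT vehicle and 1.35 in WT + SD, against 1.11 in G93A vehicle and 6.64 in G93A + SD. The SD library was the higher one in each genotype, by 5.84 times in WT and 5.97 times in G93A, and the G93A library was the higher one at each treatment, by 4.81 times with vehicle and 4.91 times with SD. The estimated read pairs were 22.7, 138, 113 and 684. As partners of 1 protein, H2-Ob and H2-Oa had a ratio of 1.06 in WT vehicle, 0.653 in G93A vehicle and 14.1 in G93A + SD, and none can be given for WT + SD.

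Ciita, the transactivator that the promoters of the set depend on, was 0.110 RPKM in WT vehicle and 0.153 in WT + SD, against 0.185 in G93A vehicle and 0.104 in G93A + SD. It was called in none of the 4 comparisons, and its log2 fold changes lay between -0.48 and 0.44. The estimated read pairs were 24.4, 35.2, 42.2 and 24.0, so its values rest on few reads. Without a pseudocount the log2 fold change was 0.74 for the genotype with vehicle and -0.84 for SD in G93A, past 1.5-fold in both. Ciita lies on chromosome 16, where its exons overlap those of Dexi on the opposite strand.

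The 7 H2 genes of the set lie together on chromosome 17 of GRCm38 from 34092379 to 34316674, a stretch of 224 kb, and Cd74 and Ciita lie on other chromosomes. In order of position they are H2-Oa from 34092379 to 34095234, H2-DMa from 34119693 to 34139101, H2-DMb1 from 34153191 to 34160229, H2-Ob from 34238905 to 34245908, H2-Ab1 from 34263227 to 34269418, H2-Aa from 34282744 to 34287823 and H2-Eb1 from 34305867 to 34316674. The 5 genes called lower with SD in G93A and the 1 called higher are all from this stretch. H2-Ob, called higher, and H2-Ab1, called lower, are neighbours among the names of the table.

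Between the first and the last of these genes the table holds 6 other names, Brd2, H2-DMb2, Psmb9, Tap1, Psmb8 and Tap2. With SD in G93A, H2-DMb2 was called higher and none of the 6 was called lower, with a median log2 fold change of 0.12. In WT, H2-DMb2 was called higher, and Psmb9, a subunit of the immunoproteasome, and Tap1, a peptide transporter of class I, were called lower, with a median of -0.43. The median of the 7 H2 members was -0.35 in WT and -0.70 in G93A. In the stretch and within 200 kb on either side of it, 24 names besides the members were listed, of which 1 was called higher and 7 lower with SD in WT, and 1 higher and 3 lower in G93A.

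Some neighbours also separated the vehicle from the SD libraries in both genotypes. Rps18, which encodes a ribosomal protein and shares 437 of its 508 windows of 53 bases (86.0%) with transcripts of other genes, so that its value is uncertain, was 15.8 RPKM in WT vehicle and 32.6 in G93A vehicle, and 0.798 in WT + SD and 1.51 in G93A + SD. AA388235 was 1.74 and 1.75 RPKM in the vehicle libraries and 0.00748 and 0.0234 in the SD libraries, and H2-K2 was 1.47 and 1.45 against 0.183 and 0.274. These neighbours were named after their values had been seen.

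Among all names, 170 were called in the same direction with SD in both genotypes, and H2-Oa and H2-Ob are among them. Of the 142 that have a position, 36 lie on chromosome 17, which holds 805 of the 16412 names with a position (4.90%). Between 33 and 37 Mb of it lie 18, in a window that holds 153 of the 16412 names (0.932%). This window was drawn after these values had been seen. Of 127 names called in opposite directions, 107 have a position, of which 5 lie on chromosome 17 and 0 in that window. At a share of 0.932%, a count of 0 among 107 says little. These WT and G93A comparisons share no library. Whether the mice given SD and those given vehicle carried the same H2 alleles, and how reads from other alleles were counted, was not tested. The effect of SD and a difference between the animals of a library cannot be told apart.

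**Figure D4:**
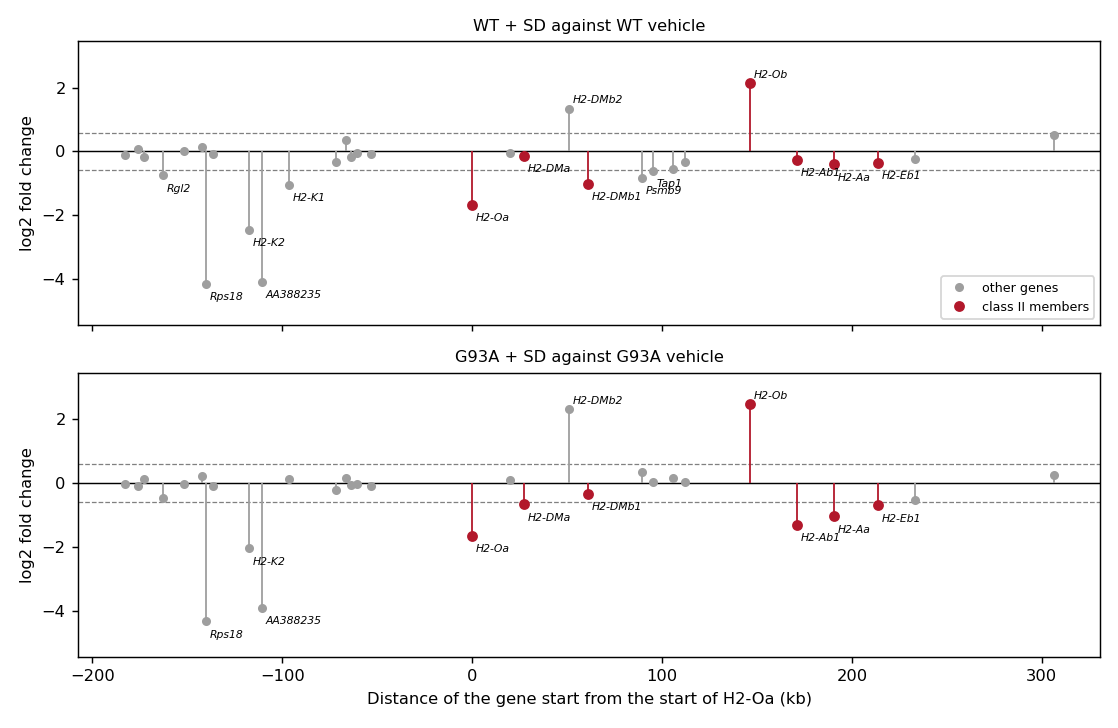
Log2 fold change of RPKM + 0.1 with SD in WT (top) and G93A (bottom) for the genes around the class II stretch, by distance of the gene start from that of H2-Oa in kb, with class II members in red and dashed lines at 1.5-fold. H2-Oa and H2-Ob point in opposite directions in both genotypes, and Rps18, H2-K2 and AA388235 are low with SD in both.

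Endosomal processing of the invariant chain and of antigen was described with 13 genes. Between the vehicle libraries 11 of them were called higher in G93A and 0 lower, with a median log2 fold change of 1.72. Between the SD libraries all 13 were called higher, with a median of 1.95. With SD, 0 were called higher and 1 lower in WT, and 0 were called in G93A, where the median was 0.22. Ctss, the cathepsin that makes the last cuts in the invariant chain, was 50.4 RPKM in WT vehicle and 44.3 in WT + SD, against 320 in G93A vehicle and 421 in G93A + SD. Its SD library in G93A lay above the vehicle library, where the surface chains had it below. Ifi30, a thiol reductase that opens antigens in endosomes, was 1.92, 2.25, 13.7 and 15.1 RPKM in the same order, and Lgmn, an asparagine endopeptidase, was 86.4, 86.9, 143 and 156 RPKM. The most abundant of the list were Ctsd, Cst3, Lamp1 and Ctsb, of which Ctsd went from 186 RPKM in WT vehicle to 1545 in G93A vehicle and 1516 in G93A + SD.

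The transcription factors of class II genes were mostly level. Of 17 genes, 4 were called higher in each genotype comparison and 0 lower, and 0 were called with SD in either genotype. The RFX subunits were Rfx5, between 5.92 and 7.19 RPKM, Rfxank, between 5.64 and 6.89 RPKM, and Rfxap, between 9.61 and 10.9 RPKM. Those called higher in G93A vehicle were Nfya, a subunit of NF-Y, Irf1, and the myeloid factors Irf8 and Spi1 (Sfpi1 in the table). Irf8 was 1.58 RPKM in WT vehicle and 1.24 in WT + SD, against 10.4 in G93A vehicle and 12 in G93A + SD. Kat2b, an acetyltransferase and the highest of the list, lay between 14.3 and 15.2 RPKM.

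Interferon gamma is the main inducer of Ciita, and 10 genes of its signalling and of cytokines that modify it were measured, while Ifng itself was not analysed here. Il4, Il10 and Tgfb1 are cytokines of their own, and Tgfb1 is known to hold Ciita back. In G93A vehicle against WT vehicle 4 were called higher and 0 lower, among them Tgfb1, from 1.70 to 7.45 RPKM, and Il4, at 0.0635 RPKM in G93A vehicle, beside Ifngr1 and Irf1. Between the SD libraries 3 were called higher in G93A and 1 lower. Irf1 stands in this list and in that of transcription. SD against vehicle gave 1 higher and 0 lower in WT and 0 higher and 2 lower in G93A, the latter being Il4 and Socs1, which lay at or below 0.428 RPKM in every library. Ifngr1, a chain of the receptor, was 7.84, 8.36, 17.7 and 20.5 RPKM in WT (vehicle, then SD) and G93A (vehicle, then SD). The most abundant, Jak1, was called in no comparison. The genes of class II turnover, March1, March8 and Cd83, were called in no comparison either, with medians between -0.01 and 0.11.

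Of 11 genes of costimulation and of the T cell side, 6 were called higher in G93A between the vehicle libraries and 7 between the SD libraries, with 0 lower in both. With SD, 1 was called higher and 0 lower in WT and 0 were called in G93A. Cd86, a costimulatory ligand, was 0.607, 0.598, 4.21 and 4.57 RPKM in WT (vehicle, then SD) and G93A (vehicle, then SD), and Lag3, a class II receptor, was 1.66, 1.23, 12.6 and 14.5 RPKM. Icosl and Cd274 were the other high members of the list, and Cd4 stayed between 0.0178 and 0.0458 RPKM.

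The 18 measured genes of MHC class I, which presents peptides from the cytosol, serve as a second presentation pathway. Between the vehicle libraries 11 were called higher in G93A and 0 lower, with a median of 0.91. Between the SD libraries these counts were 12 and 0, with a median of 1.25. With SD, 0 were called higher and 6 lower in WT, with a median of -0.36, and 2 were called higher and 3 lower in G93A, with a median of 0.06. B2m, the light chain of class I, was 80.0 RPKM in WT vehicle and 60.7 in WT + SD, against 236 in G93A vehicle and 375 in G93A + SD. In G93A it was called higher with SD, where H2-Aa, H2-Ab1 and H2-Eb1 were called lower. The other high members, the chaperones Calr, Canx and Pdia3, were called in no comparison. H2-D1, in the same window of chromosome 17, was 24.8, 8.65, 73.7 and 43.0 RPKM, with the SD library lower in each genotype.

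**Figure D5:**
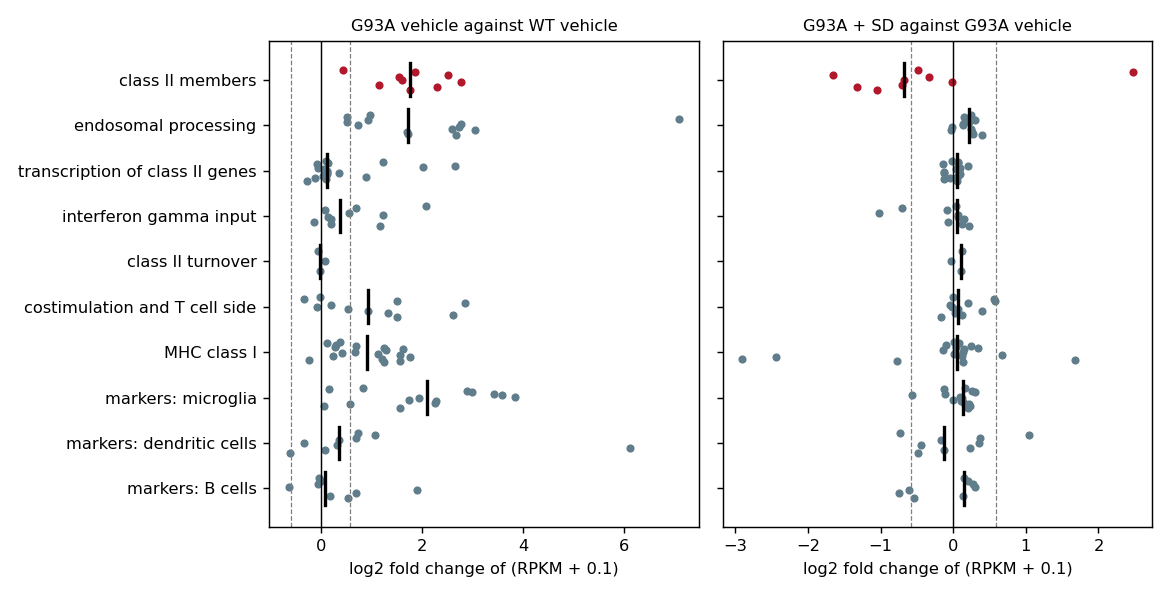
Log2 fold change of RPKM + 0.1 for the 9 class II genes (red) and the genes of the other lists (grey), for G93A vehicle against WT vehicle (left) and G93A + SD against G93A vehicle (right), with 1 point per gene, black bars at list medians and dashed lines at 1.5-fold. On the right the class II median is -0.67, while those of endosomal processing, class I and microglial markers are 0.22, 0.06 and 0.13.

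Class II genes are carried by several cell types, and their markers are given beside them. Of the 14 microglial markers, 11 were called higher in G93A and 0 lower between the vehicle libraries, with a median log2 fold change of 2.10. Between the SD libraries 12 were called higher and 0 lower, with a median of 2.32. With SD, 0 of 14 were called in either genotype, with medians of -0.16 in WT and 0.13 in G93A. In G93A vehicle against WT vehicle, H2-Ab1, Cd74 and H2-Oa lay 0.21, 0.66 and 0.40 above the microglial median on the log2 scale and the other 6 genes below it. In G93A + SD against G93A vehicle, 8 of the 9 genes lay below the microglial median and H2-Ob lay 2.34 above it.

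B cell markers were low in every library. The sum of 8 of them was 0.270 RPKM in WT vehicle and 0.447 in WT + SD, against 0.697 in G93A vehicle and 0.487 in G93A + SD. Between the vehicle libraries 2 of the 8 were called higher in G93A and 1 lower, and between the SD libraries 0 were called. With SD, 1 was called higher and 0 lower in WT, and 0 higher and 2 lower in G93A. Cd79b, a chain of the B cell receptor, was 0.0325, 0.122, 0.396 and 0.223 RPKM in WT (vehicle, then SD) and G93A (vehicle, then SD). Cd79b and its partner Cd79a were the ones called higher in G93A vehicle and lower with SD in G93A, and Pax5 was the one called lower in G93A vehicle. With SD in G93A 5 of the 8 lay above 0 without passing 1.5-fold, and the median of the list was 0.15. The sum of 8 T cell markers was 0.233, 0.646, 0.874 and 1.06 RPKM in that order. The sum of 9 dendritic cell markers was 7.54, 8.0, 19.6 and 22.1 RPKM, of which Itgax, which activated microglia also carry, made 13.2 and 15.5 RPKM in G93A vehicle and G93A + SD, against 0.092 in WT vehicle and in WT + SD. Flt3 made 5.72 and 5.67 RPKM of the sums in WT and, called lower in G93A in both genotype comparisons, 3.74 and 2.64 in G93A. Batf3 was called higher with SD in both genotypes, at 0.532 and 1.05 RPKM in WT and 1.23 and 2.65 in G93A. Xcr1, Ccr7 and Cd209a did not pass 0.0657 RPKM and Clec9a did not pass 0.176. The sum of 7 markers of border-associated macrophages was 1.57, 1.18, 3.57 and 5.51 RPKM, of which Siglec1 made 0.0347, 0.0265, 1.60 and 2.55 RPKM, and 2 of the 7 were called higher between the vehicle libraries and 4 between the SD libraries. With SD, 0 of these 7 were called higher and 1 lower in WT, and 3 higher and 0 lower in G93A, where the median was 0.52 and H2-Aa, H2-Ab1 and H2-Eb1 were called lower. The sum of 5 monocyte markers was 3.77, 4.17, 5.88 and 8.46 RPKM. Of the monocyte sums Vcan alone made 3.69, 3.85, 5.58 and 8.18 RPKM, and the other 4 markers did not pass 0.150 RPKM. Markers of other cell types moved as well. Of 5 astrocyte markers 4 were called higher in G93A in each genotype comparison, with Gfap at a log2 fold change of 2.36 between the vehicle libraries, and 0 were called with SD. Of 4 neuronal markers 2 were called lower in G93A in each genotype comparison, and of 5 motor neuron markers 2 were called lower between the vehicle libraries and 4 between the SD libraries. With SD in G93A, Nefl of the neuronal list (-0.70), Chat of the motor neuron list (-0.59) and Cldn5, 1 of 5 endothelial markers (-0.90), were called lower. The part of any of these cells in the class II values was not tested.

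The 5 names whose pattern over the 4 libraries was most like the mean of H2-Aa, H2-Ab1, H2-Eb1 and Cd74 were taken from the 8845 other names with a mean of at least 5 RPKM, by the distance between centred log2(RPKM + 0.1) values. Chi3l1 was nearest, at a distance of 0.369, followed by Naglu at 0.488, Aldh1a1 at 0.504, Efemp2 at 0.538 and Ltbr at 0.542, against a median distance of 1.8. Set against the same mean, of which 4 of them are part, members lay between 0.361 and 2.85. H2-Aa lay at 0.361, H2-DMa at 0.393, H2-Ab1 at 0.396, H2-Eb1 at 0.751 and Cd74 at 1.13, while H2-Ob lay at 2.85. Aldh1a1, a retinaldehyde dehydrogenase, was 42.5 RPKM in WT vehicle and 44.1 in WT + SD, against 163 in G93A vehicle and 73.8 in G93A + SD. Like the surface chains it was high in G93A vehicle and lower in G93A + SD. Chi3l1, a chitinase-like secreted protein, was 13.2, 11.5, 48.3 and 40.02 RPKM in the same order.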

How the data were processed

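PolyA RNA of the lumbar spinal cord was measured in 4 libraries, 1 per condition, grouped by the sample labels. The values deposited by the authors were read as RPKM, since the header names no unit and each value times its transcript length gave close totals in all libraries. Per the methods, reads of 53 bases went through STAR (GRCm38) and then HTSeq with Ensembl genes, while the table lists RefSeq transcripts (23750 rows, 18674 names). The ratio columns the authors also deposited were not used. Depth was estimated from the step of low values multiplied by transcript length, and no interval was derived from it.

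The mean of the rows of a name was compared on log2(RPKM + 0.1), with calls at 1.5-fold, and no test was made. Low values make this scale understate a fold. Ratios in the text have no pseudocount. The 9 genes are all named, with up to 4 of the most abundant genes of each list, direct partners of a member, and the 5 names most like the surface chains and Cd74. Other genes behind a small count or in the neighbourhood were named after their values had been seen. The genes, lists and rules were chosen with earlier results of these data known. Older symbols were matched through RefSeq synonyms for 5 names. Sequence windows were compared with GENCODE M21 transcripts. Alternatives were a pseudocount of 1 or none, a mean of at least 1 RPKM, 2-fold, the highest row of a name, scaling by median ratios and equal sums. Calculations ran in Python 3.11.15 with pandas 2.3.3 and numpy 2.4.6, figures in matplotlib 3.10.9, and the code that makes the calls was tested on simulated data with counting error only, which does not bear on the calls of single genes.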

Additional observations from a re-analysis of the deposited data

Results flagged for a closer look

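For 2 of the 9 genes, Cd74 and Ciita, the log2 fold change with SD had opposite signs in WT and in G93A. For Cd74 the values were 0.15 in WT and -0.010 in G93A, and the change in G93A minus that in WT was -0.16. For Ciita they were 0.27 and -0.48, with a difference of -0.75. On log2(RPKM + 0.1) neither gene passed 1.5-fold in either genotype, while without a pseudocount Ciita was past it with SD in G93A, at -0.84. Larger differences than that of Cd74 were also found without opposite signs, among them -1.05 in H2-Ab1, 0.69 in H2-DMb1 and -0.64 in H2-Aa. The differences between the genotypes were not tested.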

How the results depend on the processing

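No result turned its direction under the alternatives. Of 80 counts and medians recomputed, 74 kept their side of the threshold or stayed within 1.5 times their value. With a pseudocount of 1 RPKM, the median log2 fold change of the genes in G93A + SD against G93A vehicle was -0.44, which no longer passes 1.5-fold, 5 genes were called higher in G93A + SD against WT + SD, and 0 were called lower in WT + SD against WT vehicle. That last number was 1 with a mean of at least 1 RPKM and 1 without a pseudocount, both of which leave out H2-Oa. At 2-fold, 3 genes were called lower in G93A + SD against G93A vehicle. Of 206 recomputed fold changes of single genes, 198 kept their call, but many of them could not change. The highest row can alter only Cd74, since the other 8 genes have 1 row, and a minimum mean alters no single fold. Scaling by median ratios or equal sums moved libraries by factors between 0.977 and 1.03. The 6 of these calls that were lost, at the 1.5-fold threshold, were lost with a pseudocount of 1, those of H2-Ab1, H2-Eb1 and H2-Oa in G93A + SD against WT + SD, H2-DMb1 and H2-Oa with SD in WT, and H2-Eb1 with SD in G93A. Ciita, H2-Oa, H2-Ab1 in WT and H2-Ob in WT vehicle rest on few reads. So do H2-Aa in WT and both H2-DMb1 and H2-Eb1 in WT + SD. No paired analysis was possible with 1 library per condition, and an additive fit of genotype and SD over the 4 libraries was not run.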
